A study of Mus musculus with 63 samples.

Results

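Messenger RNA was sequenced from dorsal hippocampi of C57BL/6J and DBA/2J mice, male and female, in adolescence. The animals had received an acute injection of ethanol (EtOH, 1.5 g/kg) or saline and were fear conditioned (FC) or served as controls without fear conditioning (noFC), which gave 16 groups and 63 libraries. Both strains are inbred and no allele was altered. The sample titles also carry a number and a letter, and no number is shared between the strains or between the sexes. What the number and letter stand for is not said. All 16 groups, which differ in strain, sex, drug and conditioning, enter the comparison described here. It sets libraries that carried much RNA of the choroid plexus against libraries that carried little, and asks which genes came along with that tissue.

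The choroid plexus is a fold of vascular tissue covered by a single layer of epithelium that hangs into the ventricles of the brain, and in rodents the plexus of the lateral ventricle lies against the hippocampus. Its epithelium secretes cerebrospinal fluid by moving ions and water from the blood side to the ventricle, and it releases carrier proteins and growth factors into that fluid. Transthyretin, the thyroid hormone carrier encoded by Ttr, is its best known product, and neurons and glia of the hippocampus make little of it.

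The libraries were chosen by Ttr alone, as CPM, its counts scaled to a common library total adjusted by the trimmed mean of M-values. Of the 63 libraries, 17 lay above 2000 CPM and are called rich, 32 lay below 100 CPM and are called poor, and 14 lay between the thresholds. Ttr chose the libraries, so its own values are a description: 2060 CPM at the lowest, 3768 at the median and 11006 at the highest in the rich libraries, against 12.2, 50.7 and 96.3 CPM in the poor ones. The rich library nearest to its threshold held 2060 CPM and the closest library outside it 1630, while at the lower threshold 96.3 CPM was just inside and 114 just outside. The 2 richest libraries were one of female C57BL/6J mice given saline without conditioning (11006 CPM) and one of conditioned male DBA/2J mice given saline (9856 CPM).

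**Figure D1:**
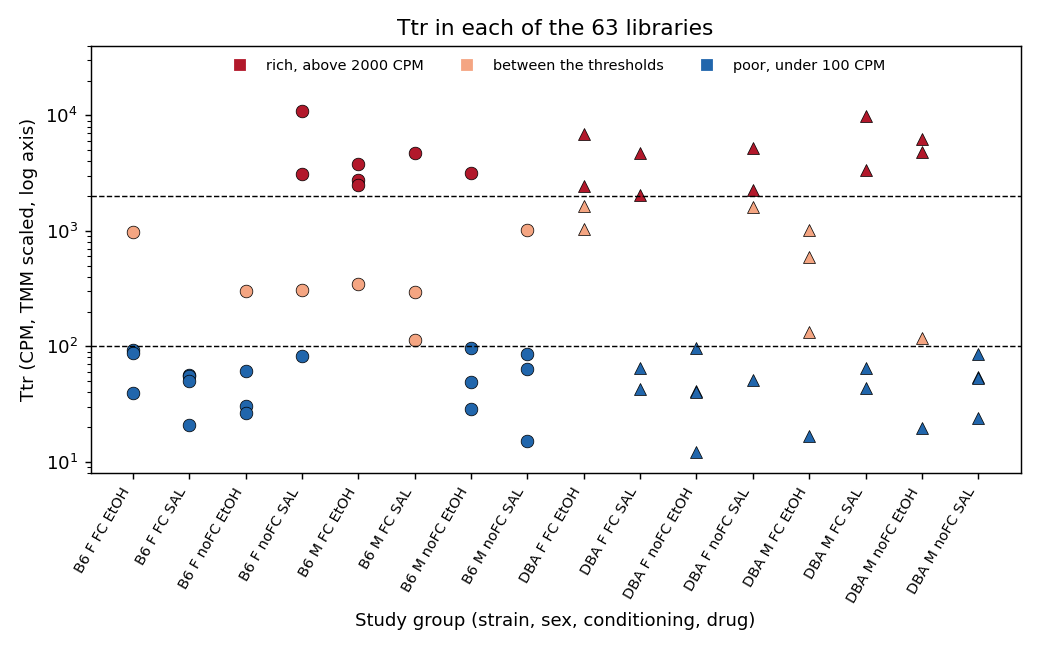
Ttr in CPM on a log axis for each of the 63 libraries, by study group, with C57BL/6J (B6) as circles and DBA/2J (DBA) as triangles and the thresholds of 2000 and 100 CPM as dashed lines. The 17 rich libraries are spread over 9 of the 16 groups, and values run from 12.2 to 11006 CPM.

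Depth did not separate the libraries: total counts ran from 21736159 to 47673885 in the rich and from 21875908 to 61631742 in the poor libraries. Mitochondrial genes took 3.9% to 5.79% of the counts in the rich and 3.93% to 6.15% in the poor libraries. Markers of the labelled tissue were present in both, with the CA1 gene Wfs1 at a median of 190 CPM in rich and 205 CPM in poor libraries and the granule cell gene Prox1 at 139 and 156 CPM.

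Rich libraries occurred in 9 of the 16 groups and under 13 of the 16 numbers in the sample titles, with at most 3 in one group. The other 7 groups held none. By strain, 7 rich and 17 poor libraries came from C57BL/6J and 10 rich and 15 poor from DBA/2J. Conditioned mice gave 10 rich and 12 poor libraries, and mice without conditioning 7 and 20. Females gave 8 rich and 18 poor, and males 9 and 14. Ethanol gave 8 and 15, and saline 9 and 17. None of these splits passed a two-sided Fisher's exact test (smallest p = 0.228, for conditioning, adjusted p = 0.94 over 5 labels, n = 49 libraries). Combinations of labels were not tested, and single groups were uneven. Conditioned male C57BL/6J mice given ethanol gave 3 rich and 0 poor libraries. Conditioned females of that strain given saline gave 0 and 4, as did unconditioned female DBA/2J mice given ethanol.

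Of 19973 genes tested without Ttr, 2971 (14.9% of all genes tested) were higher and 3027 (15.2%) lower in the rich libraries (30% together) at an adjusted p under 0.05 in edgeR's quasi-likelihood test with strain as covariate. The 2 sides differed in size. Among the higher genes the median log2 difference was 0.37, 522 exceeded 2-fold and 111 exceeded 8-fold, whereas among the lower genes the median was −0.11, 4 exceeded 2-fold and 1 exceeded 8-fold. For 159 genes (0.796%) every rich library lay above every poor one, and for 0 genes (0%) below. Without scaling factors 3618 genes were higher and 1608 lower, so that 69.2% of the calls were on the higher side against 49.5% with them, and the median over all genes moved from −0.01 to 0.01. These tests ask which genes move with Ttr across libraries, and in bulk tissue fewer cells of a type and less RNA per cell cannot be told apart. The labels do not say how replicate libraries were obtained, so the p-values measure only the spread between these libraries.

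The genes more than 2-fold higher made up a small share of the RNA. Their summed level was 3796 CPM at the lowest, 6453 at the median and 17000 at the highest in rich libraries, and 1168, 1485 and 1989 CPM in poor ones. The genes were chosen from these same libraries by this difference, so the gap between the sums is a description. Many were close to absent in the poor libraries: 237 of the 522 (45.4%) had a median below 10 counts there, as did 78 (70.3%) of the 111 above 8-fold. Such genes could enter the test through the rich libraries alone.

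Kcnj13 and Tmem72, the markers by which the plexus was to be recognised besides Ttr, were among the 3 genes with the smallest p. Kcnj13 encodes Kir7.1, an inward rectifier potassium channel of the apical membrane of the epithelium, and lies at chr1:87386363-87394729 (GRCm38). Its level was 16.5 CPM at the lowest, 36.4 at the median and 101 at the highest in the rich libraries, against 0.126, 0.527 and 1.6 CPM in the poor. The groups were far apart, with a log2 difference of 6.12 ± 0.20 (SE; adjusted p = 5.6e-31). Tmem72, a membrane protein gene at chr6:116679063-116716913, ran from 32.6 CPM over a median of 57.4 to 309 in rich libraries and from 0.0455 over 0.554 to 1.38 in poor ones. Its log2 difference was 7.05 ± 0.23 (adjusted p = 5.6e-31), but 1.71 ± 0.10 in the sums of the transcript table. In the libraries between the thresholds Kcnj13 ran from 1.28 over 5.51 to 14.8 CPM and Tmem72 from 1.25 over 6.71 to 36.8 CPM. Both medians lay between those of the classes, while the lowest values overlapped the poor libraries and the highest Tmem72 value the rich ones. Both markers, which did not choose the libraries, thus separated them as Ttr did.

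**Figure D2:**
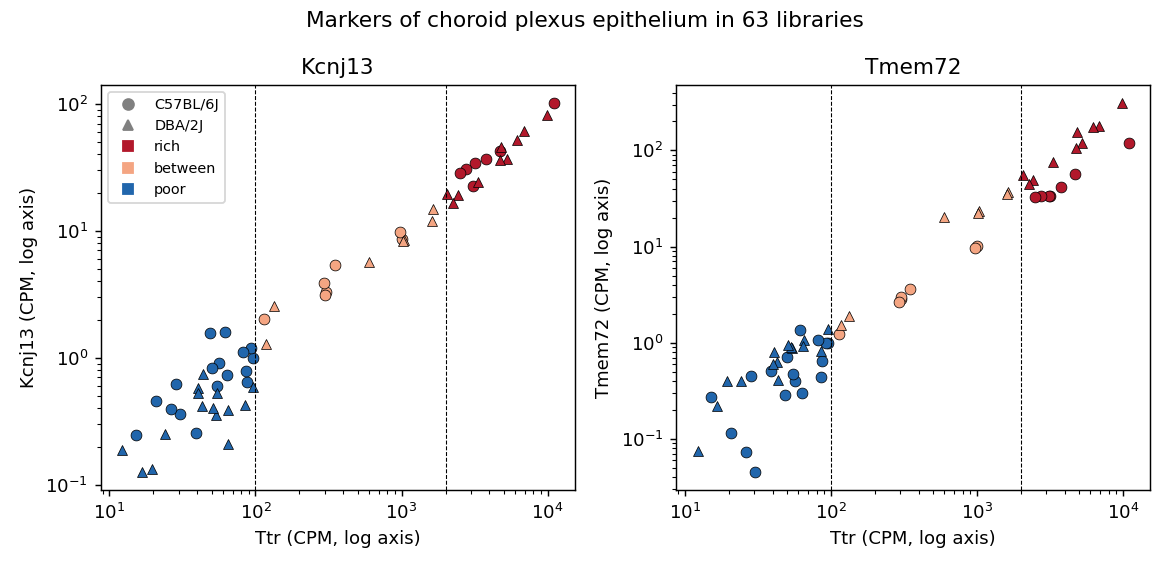
Kcnj13 (left) and Tmem72 (right) against Ttr, all in CPM on log axes, 1 point per library, circles for C57BL/6J and triangles for DBA/2J, coloured by class, with dashed lines at 100 and 2000 CPM of Ttr. Kcnj13 runs from 0.126 to 101 CPM along Ttr in both strains, and the DBA/2J points of Tmem72 lie above those of C57BL/6J in the rich range.

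Over 6 lists of choroid plexus genes, 57 of 58 members were higher in the rich libraries and none was lower, beside 14.9% and 15.2% of all genes. The median log2 difference was 3.16 against −0.01 for all genes tested. In 45 of the 58 every rich library lay above every poor one, beside 0.796% of all genes. The lists were drawn up as markers of this tissue, so their direction was the one they were chosen for. Their exceptions, and their sizes relative to one another, are what the data add. The sizes themselves depend on the Ttr thresholds that chose the libraries. Ttr had medians of 3768 CPM in rich and 50.7 CPM in poor libraries. With thresholds closer together the log2 difference of Kcnj13 was 5.64, and with thresholds further apart 6.52, in place of 6.12. Without the 2 libraries with the highest Ttr the count was again 57, with a median of 2.91, and it was 57 within C57BL/6J alone and within DBA/2J alone.

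Genes for ion and water transport were higher in 11 of 11 cases, with a median of 3.91. That was close to the 3.82 of the epithelial structure list, and the order of these 2 lists turned in C57BL/6J alone, at 3.52 and 3.97. Slc4a5, a sodium bicarbonate cotransporter of the apical membrane, had 29 CPM at the median of rich and 0.472 CPM of poor libraries, a log2 difference of 6.26 ± 0.21 (adjusted p = 4.4e-30). Kcne2, the auxiliary subunit of potassium channels, stood at 31.7 against 0.453 CPM (6.16 ± 0.20). The water channel gene Aqp1 stood at 27.7 against 0.619 CPM (5.56 ± 0.19). For all 3 of these genes the lowest rich library, between 11.2 and 13.6 CPM, was above the highest poor one, between 0.842 and 1.36 CPM. Clic6 (4.60) and Trpv4 (3.91), a chloride channel family member and a calcium-permeable channel, came next on the log2 scale. Transporters that hippocampal cells also use changed less: the sodium-potassium-chloride cotransporter Slc12a2 by 0.80 ± 0.07, from a median of 115 CPM in poor to 185 in rich libraries, and the calcium pump Atp2b3 by 0.40 ± 0.07, from 131 to 159 CPM. The ranges of these 2 genes overlapped between the classes.

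The sequences before the starts of 3 of these genes are shown, as examples of channel genes of the ion and water transport list that differed by more than 5 on the log2 scale. Other genes of the lists, such as Slc4a5, differed as much. They are the 250 bases before a RefSeq start, from the RefSeq promoter table (GRCm38.p6), with Kcnj13 on the minus strand of chr1:87394730-87394979, Kcne2 on the plus strand of chr16:92292139-92292388 and Aqp1 on the plus strand of chr6:55336049-55336298. Capitals mark TAATCC, the core recognised by the homeodomain factor OTX2, and GTTGCC, part of the site of RFX factors, searched on both strands.
Kcnj13: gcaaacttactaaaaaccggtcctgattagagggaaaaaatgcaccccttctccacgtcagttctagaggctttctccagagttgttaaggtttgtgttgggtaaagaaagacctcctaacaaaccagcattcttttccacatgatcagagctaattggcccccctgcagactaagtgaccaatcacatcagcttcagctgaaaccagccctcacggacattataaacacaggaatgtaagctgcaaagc
Kcne2: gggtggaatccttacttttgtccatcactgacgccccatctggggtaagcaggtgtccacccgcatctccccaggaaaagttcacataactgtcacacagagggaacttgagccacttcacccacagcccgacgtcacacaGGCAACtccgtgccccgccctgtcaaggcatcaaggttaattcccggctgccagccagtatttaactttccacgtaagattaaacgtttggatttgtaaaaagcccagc
Aqp1: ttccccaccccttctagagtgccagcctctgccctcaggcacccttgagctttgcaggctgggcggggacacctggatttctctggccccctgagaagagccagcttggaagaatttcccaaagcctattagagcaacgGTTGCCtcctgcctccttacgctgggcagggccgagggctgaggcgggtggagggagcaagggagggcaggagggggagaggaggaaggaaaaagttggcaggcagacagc
In Kcne2 the printed strand holds GGCAAC, the reverse complement of GTTGCC, from base 109 before the start. In Aqp1 GTTGCC begins at base 111 before the start, and neither motif is in the Kcnj13 window. Kcne2 has a further RefSeq start, whose window at chr16:92295366-92295615 holds 0 matches and is not printed. Over the choroid plexus lists, 43 of 58 genes were matched, with 59 windows. TAATCC was in 5 of them (8.47%) and GTTGCC in 8 (13.6%), against 6.25% and 10.4% of all 32851 windows. For the genes more than 2-fold higher in rich libraries the shares were 6.6% and 13.4% of 424 windows.

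All 11 listed genes for secreted and carrier proteins were higher (median 3.01). Enpp2, the secreted enzyme autotaxin that makes lysophosphatidic acid, was the most abundant of them. It ran from 1130 CPM over 2300 to 6550 in rich and from 144 over 248 to 351 CPM in poor libraries, without overlap, a log2 difference of 3.52 ± 0.15 (adjusted p = 1e-26). Per kilobase of exon Enpp2 reached a mean of 494 CPM in rich libraries, above the synaptic gene Snap25 at 231 CPM per kilobase, and Ttr reached 3910. F5, the clotting factor V gene, was 42.4 CPM at the rich and 1.31 CPM at the poor median (5.31 ± 0.21). 1500015O10Rik, which encodes the secreted peptide augurin, stood at 47.9 against 2.33 CPM (4.58 ± 0.18). The growth factor gene Igf2 and its binding protein gene Igfbp2 had smaller log2 differences of 2.52 and 2.48 from poor medians of 55.3 and 19.8 CPM. Kl, the gene of the anti-ageing membrane protein klotho, was 135 against 23.5 CPM (3.01 ± 0.14).

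Carriers for folate, metals and organic ions followed the same order of a few very specific genes and some shared ones. All 11 were higher with a median of 3.08. Folr1, the folate receptor that loads folate into the fluid, was 27.4 CPM at the rich and 0.678 CPM at the poor median (5.46 ± 0.20), and the lactate transporter gene Slc16a8 3.06 and 0.0724 CPM (5.78 ± 0.24). The copper transporter gene Slc31a1 differed by 1.43 ± 0.09, still without overlap between the classes. Abcc4 and Slc29a4, which pump and take up organic ions, differed by 0.39 and 0.59 and their ranges overlapped.

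The list of epithelial structure and adhesion, which holds claudins and keratins and also Tmem72, Col8a1, Cltrn, Spint2, Perp and Cab39l, was higher in 11 of 11 cases (median 3.82). Cldn2, the claudin of leaky epithelia, had 23.9 CPM at the rich and 0.73 CPM at the poor median (5.36 ± 0.19). Cldn1 and Cldn3 differed by 3.82 and 2.13, while Cldn5, the claudin of brain capillaries, had a log2 difference of −0.05 ± 0.05 (adjusted p = 0.56). The keratin genes Krt8 and Krt18 of simple epithelia were at 0.22 and 0.412 CPM at the poor median and at 2.83 and 5.63 CPM in rich libraries. The list of receptors and signalling, which also holds the channel gene Trpm3, the enzyme genes Ace, Sulf1 and Rdh5, the cell cycle inhibitor gene Cdkn1c and Cox8b, rose in 8 of 8 cases with a median of 2.90. The prolactin receptor gene Prlr differed most in it (68.8 against 3.82 CPM, 4.57 ± 0.19). Htr2c, the serotonin 2C receptor gene that hippocampal neurons also express, differed by 2.36 ± 0.16 with overlapping ranges of 27.7 to 172 and 7.12 to 32.8 CPM.

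Transcription factors gave the only member that did not pass. Otx2, the homeobox gene that specifies the plexus, was 17.8 against 1.7 CPM (3.81 ± 0.21), Lmx1a 2.17 against 0.244 CPM (3.24 ± 0.20) and Msx1 17.2 against 4.88 CPM (2.09 ± 0.12). Foxj1 and Rfx2, regulators of motile cilia, differed by 1.01 and 0.42. Rfx3, also a cilia regulator, had 145 CPM at the rich and 149 CPM at the poor median, with a log2 difference of −0.03 ± 0.05.

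Straight lines through all libraries of a strain gave the level of a plexus gene per unit of Ttr (31 libraries for C57BL/6J and 32 for DBA/2J). The lines were alike in the strains for some genes and differed for others. For each 1000 CPM of Ttr, 1500015O10Rik rose by 12.4 ± 0.0854 (SE) CPM in C57BL/6J and 12.3 ± 0.233 CPM in DBA/2J. Enpp2 gave 583 ± 6.95 and 586 ± 18.1 CPM, Aqp1 7.29 ± 0.0948 and 7.24 ± 0.107 CPM, and Kcne2 7.37 ± 0.137 and 7.49 ± 0.136 CPM. Tmem72 gave 11.1 ± 0.125 CPM in C57BL/6J and 28.4 ± 0.842 in DBA/2J. Igfbp2 (16 ± 0.398 and 24.3 ± 0.97 CPM) and Sostdc1, a secreted antagonist of BMP signals (6.29 ± 0.122 and 9.87 ± 0.301 CPM), also had the steeper line in DBA/2J. F5 (15.2 ± 0.444 and 10.3 ± 0.537 CPM) and Wfikkn2, a secreted protease inhibitor gene (1.31 ± 0.109 and 0.467 ± 0.0571 CPM), had it in C57BL/6J. These lines are a description, since Ttr itself could differ between the strains. They also lean on the libraries with the most Ttr. In C57BL/6J the highest held 11006 CPM and the next 4718, and in DBA/2J 9856 and 6841 CPM. The lines were not fitted without the highest libraries.

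The strains were also compared in all 63 libraries with log2 Kcnj13 as a covariate in place of Ttr. Kcnj13 itself gave 9.23 ± 0.166 CPM per 1000 CPM of Ttr in C57BL/6J and 8.34 ± 0.153 in DBA/2J, so the values below are relative to Kcnj13, and whether it differs between the strains per amount of plexus was not tested. Of 57 choroid plexus genes, 19 were higher and 7 lower in DBA/2J, next to 26.9% and 25.8% of all genes tested. Tmem72 differed most, by 1.42 ± 0.13 on the log2 scale (adjusted p = 8.7e-14). Cox8b, a cytochrome oxidase subunit gene, was higher by 0.70, Calml4 by 0.67 and Igfbp2 by 0.61. On the other side Cltrn fell by 0.60 on the log2 scale (adjusted p = 0.024), Abca4 by 0.52 and F5 by 0.37. Without that covariate Tmem72 differed between the strains by 1.69 ± 0.74 (adjusted p = 0.051).

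The log2 difference between rich and poor libraries itself differed between the strains for 20 genes. The term was positive (DBA/2J minus C57BL/6J) for 7 (0.035% of genes) and negative for 13 (0.0651%), by a strain-by-class term added after the data were seen. No choroid plexus list gene was among them by edgeR, and 6 of the 58 had an unadjusted p below 0.05. The smallest p belonged to Ccl9, a chemokine gene, with a difference of 0.01 ± 0.15 in C57BL/6J and 1.59 ± 0.13 in DBA/2J (adjusted p of the term 7e-06). Oca2, a melanosome transporter gene, had medians of 4.02 CPM in rich and 0.672 CPM in poor libraries of C57BL/6J, and of 0.507 and 0.422 CPM in DBA/2J (adjusted p of the term 1.2e-05). Inmt, a methyltransferase gene, differed by 2.09 ± 0.26 and 4.41 ± 0.33. The term is on the log2 scale, which also depends on the level without the plexus. Per 1000 CPM of Ttr, Inmt gained 0.569 CPM in C57BL/6J and 0.508 in DBA/2J, and Exoc3l2 gained 0.239 and 0.271. Myo7a, with a term of 1.32, gained 2.29 and 1.54 CPM, the reverse order. Ccl9 (0.0175 and 0.939 CPM) and Oca2 (1.07 and 0.0726 CPM) went with their terms. For Tmem72 the term was 1.02 ± 0.57 (adjusted p = 0.99).

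The 14 libraries between the thresholds had no part in the comparison of rich with poor libraries, and they span a narrower range of Ttr, from 114 to 1630 CPM. The log2 level of each gene was fitted on log2 Ttr with strain as covariate. Positive slopes passed for 86 genes (0.431%) and negative ones for 2 (0.01%). All 86 were among the genes higher in rich libraries, which is 100% of the genes with a positive slope and 2.89% of the higher genes. Of the 522 genes more than 2-fold higher, 91.6% had a positive slope, against 48.5% of all genes, and all 111 above 8-fold did, with a median slope of 0.58. On the other side none of the 3027 lower genes had a negative slope that passed, and 64.3% of them had a negative slope against 51.5% of all genes. In simulated data this fit recovered 24% of slopes of 0.1, and the median slope of the lower genes was −0.006, so small slopes can be missed here. Over all genes 872 had an unadjusted p below 0.05, where 999 would be 5% of the genes.

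Of the 58 choroid plexus genes 32 had a positive slope that passed, beside 0.431% of all genes. A positive slope was seen in 57 of them, beside 48.5% of all genes. A slope of 1 means that a gene doubled when Ttr doubled. Kcne2 had a slope of 1.04 ± 0.04 (adjusted p = 9.8e-11), Slc4a5 1.07 (adjusted p = 9.8e-11), Tmem72 1.10 (adjusted p = 9.9e-09) and Aqp1 0.91 (adjusted p = 4.2e-08). Kcnj13 reached 0.75 ± 0.05 (adjusted p = 5.5e-08) and Enpp2, with its higher level in poor libraries, 0.52 ± 0.03 (adjusted p = 9.1e-09). Prlr, Folr1, F5 and Col8a1, a collagen gene, lay between 0.82 and 0.85.

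**Figure D3:**
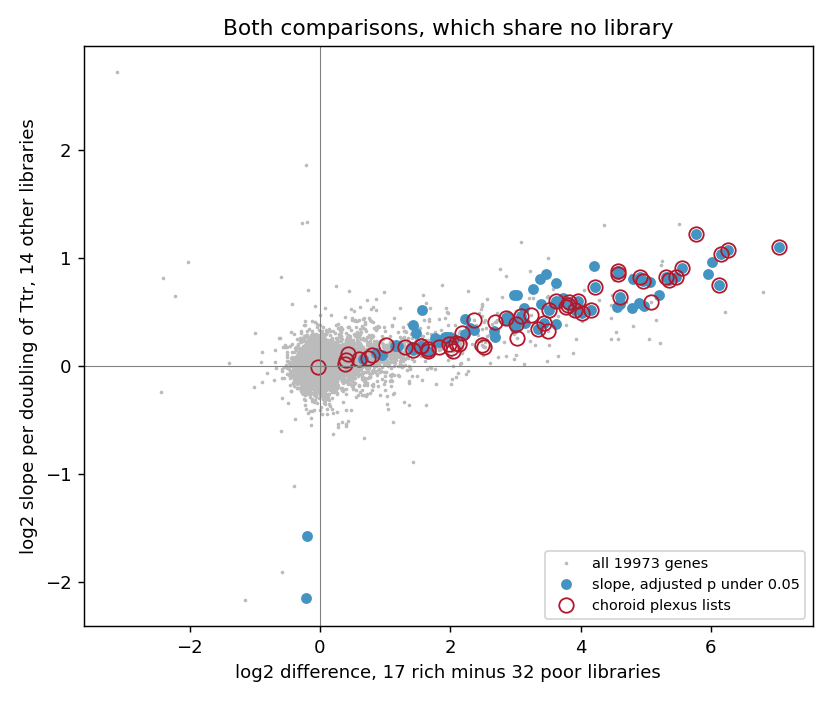
Slope of log2 level per doubling of Ttr in the 14 libraries between the thresholds (vertical) against the log2 difference of the 17 rich and 32 poor libraries (horizontal) for 19973 genes, with the 88 genes whose slope passed in blue and the choroid plexus lists ringed in red. The 86 positive slopes that passed all lie right of 0, and the 2 negative ones, Gh and Prl, lie near a difference of 0.

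The 2 genes with negative slopes, Gh and Prl, encode the pituitary hormones growth hormone and prolactin. Gh had a slope of −2.15 (adjusted p = 0.0073) and Prl of −1.58 (adjusted p = 0.02). Between rich and poor libraries they had log2 differences of −0.22 ± 0.55 and −0.20 ± 0.61, and Gh ran from 0 to 10.3 CPM in rich and from 0 to 11.1 CPM in poor libraries, so the classes overlapped. The count of negative slopes was 0 without 1 library of conditioned male C57BL/6J mice given saline and 5 without 1 of conditioned female DBA/2J mice given ethanol.

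Other tissue of the ventricle and its lining moved along in part. Ependymal cells line the ventricle and carry motile cilia, and 14 of 16 genes of their cilia were higher in rich libraries (14.9% of all genes were), with a median of 0.78. Tekt1, a tektin of the ciliary microtubules, was 5.89 CPM at the rich and 2.08 CPM at the poor median (1.53 ± 0.14) and was the one member whose classes did not overlap. Dnah11, a dynein heavy chain gene, differed by 1.58 ± 0.17 and Cfap126 by 1.46 ± 0.14, whereas Dnah5 and Fam183b had log2 differences of 0.19 and 0.14 that did not pass. In the unused libraries 16 of 16 slopes were positive with a median of 0.17, none of which passed in edgeR or in limma voom, and 5 had an unadjusted p below 0.05. With the mean of a list of striatal genes as a further covariate 8 of the 16 were higher, with a median of 0.38.

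Stroma and meninges, the fibroblasts of the plexus core and of the brain surface, gave 13 of 14 genes higher, beside 14.9% of all genes, with a median of 0.79. With the striatal list as covariate 8 of the 14 were higher, with a median of 0.54. Ogn, a small leucine-rich proteoglycan gene, was 12.2 against 4.21 CPM (1.71 ± 0.14), Lum, of the same family, 6.38 against 2.65 CPM (1.47 ± 0.14), and Col1a2 24.1 against 12.9 CPM (1.13 ± 0.14). Pdgfra, also a gene of oligodendrocyte precursors, was 63.1 against 62.3 CPM and did not pass. In the unused libraries the list did not follow Ttr: 6 of 14 slopes were positive, their median was −0.01, and Lum was the one that passed (slope 0.31, adjusted p = 0.025). The meningeal transporter genes Slc6a13, Slc22a6 and Slc47a1 had slopes of −0.11, −0.16 and −0.16 there, which did not pass.

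Macrophages of brain borders and antigen presentation were higher in 9 of 10 genes, beside 14.9% of all genes, with a median of 0.58, and in 6 of 10 with the striatal list as covariate. Cd74, the invariant chain of MHC class II, was 4.25 against 1.65 CPM (1.14 ± 0.16), H2-Aa 0.734 against 0.39 CPM (1.12 ± 0.19), and the perivascular macrophage gene Mrc1 4.78 against 3.61 CPM (0.52 ± 0.08). Microglia differed from them: of 10 genes 0 were higher and Cx3cr1 alone was lower, by −0.08 ± 0.03, by edgeR and by DESeq2, with 2 lower at an unadjusted p below 0.05.

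Endothelium gave 6 of 12 genes higher, beside 14.9% of all genes, and none lower, with a median of 0.14. The count was 2 in DBA/2J alone and 3 with the striatal list as covariate. The 2 largest were Plvap, the diaphragm protein of fenestrated capillaries such as those of the plexus, (0.51 ± 0.06), and the VEGF receptor gene Kdr (0.43 ± 0.07). Plvap had medians of 9.77 CPM in rich and 6.15 CPM in poor libraries of C57BL/6J and of 17.3 and 13.7 CPM in DBA/2J. Genes of the blood-brain barrier moved little: Cldn5 and Mfsd2a had log2 differences of −0.05 and −0.06, and Slco1a4 was higher by 0.16 ± 0.04. Mural cells gave 3 of 8 higher, with Acta2 (0.44) and Tagln (0.35) of smooth muscle the largest, but 1 in C57BL/6J alone, 0 in DBA/2J alone and 1 with the striatal covariate. Haemoglobin and Alas2, from blood cells, did not pass in any of 5 cases by edgeR or DESeq2, although all 5 differences were positive with a median of 0.51 and 1 had an unadjusted p below 0.05. Hbb-bs had a median of 106 CPM in rich and 57.2 CPM in poor libraries, with overlapping ranges.

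**Figure D4:**
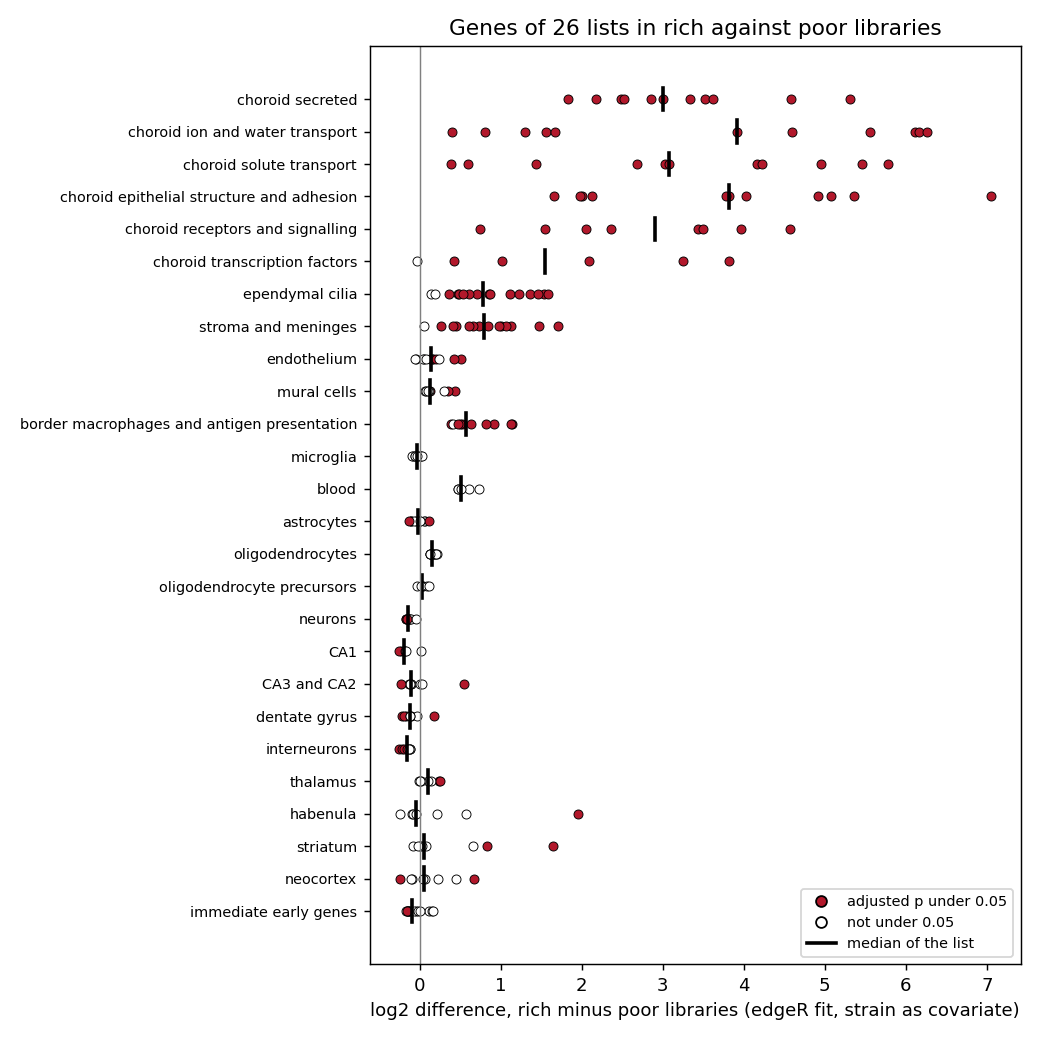
Log2 difference between rich and poor libraries for each gene of 26 lists, filled where the adjusted p was under 0.05, with the median of each list as a bar. The 6 choroid plexus lists have medians from 1.55 to 3.91, ependymal cilia and stroma lie near 0.8, and the neuronal lists lie just left of 0.

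Genes of neurons were lower by small amounts, in 8 of 10 cases with a median log2 difference of −0.14 (15.2% of all genes were lower). Rbfox3, the neuronal nuclear antigen, fell by 0.17 on the log2 scale (adjusted p = 5.9e-06), from a median of 257 CPM in poor to 227 in rich libraries, and Camk2a, the kinase of excitatory neurons, by 0.16 from 4880 to 4270 CPM. Both ranges overlapped. The median of the list was −0.12 without scaling factors and 8 of 10 were again lower. For CA1 pyramidal cells 4 of 6 were lower, Pou3f1 most (−0.25 ± 0.06), for interneurons 5 of 8, with the somatostatin gene Sst at −0.25 ± 0.04, and for the dentate gyrus 4 lower and 1 higher of 8. The dentate count was 1 lower without scaling factors, 2 without the 2 libraries with the highest Ttr, and 0 in DBA/2J alone or with the striatal covariate. Of 8 genes of CA3 and CA2, 2 were lower and 1 was higher. Within DBA/2J alone 1 of the 10 neuronal, 0 of the 6 CA1 and 0 of the 8 interneuron genes were lower, with medians of −0.11, −0.14 and −0.12. With the striatal list as covariate 5, 1 and 1 of these were lower. In the unused libraries none of these lists had a slope that passed, by edgeR or limma voom, and none of their genes had an unadjusted p below 0.05.

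The lower genes with the smallest p were of the same size. Trim9, a neuronal ubiquitin ligase gene, ran from 265 to 307 CPM in rich and from 286 to 359 CPM in poor libraries (−0.15 ± 0.02, adjusted p = 7.1e-08). Atcay, which encodes caytaxin, was 185 against 205 CPM (−0.15 ± 0.02) and Kcnj3, a G-protein gated potassium channel gene, 159 against 175 CPM (−0.15 ± 0.03). Cort, the cortistatin gene of interneurons, had the largest lower difference among genes with a mean log2 CPM above 1, at −0.32 ± 0.09 (adjusted p = 0.0061), with medians of 3.08 and 3.73 CPM in C57BL/6J and 1.16 and 1.38 CPM in DBA/2J.

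Glia showed no common direction. Of 10 astrocyte genes 1 was higher (Sox9, 0.12) and 3 were lower, beside 14.9% and 15.2% of all genes. Among the lower were the glutamate transporter genes Slc1a2 and Slc1a3 (both −0.11). Without scaling factors 1 was lower and the median turned from −0.03 to 0.0043. None of 10 oligodendrocyte genes passed by edgeR or DESeq2. All 10 had positive differences with a median of 0.15, and 3 had an unadjusted p below 0.05. In C57BL/6J alone 4 were higher by edgeR, with a median of 0.24.

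Tissue next to the hippocampus was checked through lists of thalamus, habenula, striatum and neocortex. Higher were 2 of 7 thalamic, 1 of 7 habenular, 2 of 8 striatal and 1 of 8 neocortical genes, shares that for the habenula and neocortex are near the 14.9% of all genes. The neocortical gene Fezf2 was lower (−0.25 ± 0.06). In the striatal list Ppp1r1b, which encodes the dopamine-regulated phosphatase inhibitor DARPP-32, ran from 54 over 74.4 to 138 CPM in rich and from 39.5 over 45.5 to 51.9 CPM in poor libraries. The classes did not overlap and the log2 difference was 0.83 ± 0.06 (adjusted p = 6.5e-16), while its slope in the unused libraries was 0.07 (adjusted p = 0.8). Six3, a forebrain homeobox gene, differed by 1.65 ± 0.34. The dopamine and adenosine receptor genes of the striatum had small differences that did not pass, with Drd1 at 4.44 and 4.43 CPM (−0.08 ± 0.08), Drd2 at 2.98 and 2.62 CPM (0.08 ± 0.19) and Adora2a at 2.09 and 1.98 CPM (0.02 ± 0.09). In the habenular list Chrnb4, a nicotinic receptor subunit gene, was 0.807 against 0.206 CPM (1.96 ± 0.22), while Gpr151 had a log2 difference of −0.24 ± 0.14 that did not pass. With the mean of the striatal list as covariate 1752 genes were higher and 933 lower. That mean includes Ppp1r1b and Six3, which themselves differed between the classes, so it cannot separate neighbouring tissue from plexus. With it the log2 difference of Kcnj13 was 5.74 in place of 6.12. The part of neighbouring tissue in these values was not tested.

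Immediate early genes are transcribed within minutes of neuronal activity. Of 14 such genes 0 were higher, by edgeR, by DESeq2 or at an unadjusted p below 0.05, and 2 were lower in edgeR, Junb by −0.16 ± 0.05 and Nr4a1 by −0.16 ± 0.06, beside 15.2% of all genes. Fos had a log2 difference of −0.04 ± 0.10 and Arc of −0.07 ± 0.10. Neither Junb nor Nr4a1 passed without the 2 libraries with the highest Ttr. In C57BL/6J alone 0 were lower, with a median of 0.0035. In the unused libraries 13 of 14 slopes were positive with a median of 0.04, against 48.5% of all genes. None of them passed by edgeR or limma voom, and 3 positive ones had an unadjusted p below 0.05.

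The transcript table was searched for forms of a gene whose share differed between rich and poor libraries. In bulk tissue the cells that made a form cannot be told apart. Of 9564 genes with several transcripts, 300 (3.14%) differed in the share of their transcripts between rich and poor libraries, by limma's diffSplice with Simes' method, a test added after the data were seen. Slc4a10, a sodium bicarbonate transporter of neurons and of the basolateral membrane of the plexus, led by p (adjusted p = 3.3e-25). Shares here are of the tested transcripts of a gene, and transcripts with under 5% of its counts were left out. The transcript Slc4a10-201 made up 16.8% ± 5.76 (SD, n = 17) in rich and 2.62% ± 1.48 (n = 32) in poor libraries, with 5.65% ± 2.3 in those between. Car12, a membrane-bound carbonic anhydrase, had Car12-201 at 77.3% ± 10.1 and 32.6% ± 12.7 (adjusted p = 1.8e-18). In Ap1s2, an adaptor subunit of vesicle coats, Ap1s2-203 held 36.5% ± 8.57 and 16.9% ± 1.97 (adjusted p = 7.6e-23). None of these 3 genes passed in the same test on Ttr in the unused libraries (limma, adjusted p = 0.51 for Slc4a10, 0.12 for Car12 and 0.44 for Ap1s2).

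Trpm3, a cation channel gene at chr19:22139046-22995410, was at 234 CPM at the rich and 101 CPM at the poor median (fitted difference 2.92-fold). Its short transcript Trpm3-211 is annotated as a retained intron at chr19:22692822-22769380. Of the tested transcripts it made up 23.7% ± 12.3 in rich, 8.6% ± 8.16 in the libraries between and 1.26% ± 0.708 in poor libraries (limma, adjusted p = 1.8e-19). Its share also followed Ttr in the unused libraries (limma, adjusted p = 5e-07). The only other form tested, the long coding Trpm3-218, held the rest of that sum, which leaves out the forms not tested. Trpm3 is the host gene of the microRNA miR-204. The hairpin lies at chr19:22750605-22750672 on the plus strand, in the intron between exons 7 and 8 of Trpm3-211, and its mature form from the RefSeq table is shown with the seed, bases 2 to 8, in capitals because it is the other product of the stretch that Trpm3-211 covers.
mmu-miR-204-5p: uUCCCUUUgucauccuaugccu
At the hairpin itself the gene table held 7 counts in all, in 4 of the 17 rich libraries and in no library of the other classes. Counts of this kind come from libraries made from messenger RNA, so they do not measure the mature microRNA.

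The gene and transcript tables gave different sizes for 3 choroid plexus genes. In the sums of the estimated transcript counts 57 of the 58 were higher again. Tmem72 had medians of 1595 counts in rich and 15.5 in poor libraries in the gene table but 3330 and 1217 in the transcript table, and its log2 difference was 1.71 ± 0.10 there in place of 7.05. Mfrp, the frizzled-related protein gene whose messenger RNA also carries the reading frame of C1qtnf5, gave 6.00 ± 0.20 in place of 3.08, and Rdh5, a retinol dehydrogenase gene, 2.47 ± 0.13 in place of 0.74. Which table is nearer to the true level of these genes was not tested, and the other 55 members differed by at most 0.11.

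The study's own comparisons were examined for the plexus genes in all 63 libraries. For strain, 5 of them passed in edgeR, beside 25.5% of all genes higher and 24.5% lower in DBA/2J. For sex (0.0801% of all genes higher in males, 0.12% lower), ethanol (0.25% and 0.295%) and conditioning (0.02% and 0%), 0 of the choroid plexus genes passed in edgeR, and 0 had an unadjusted p below 0.05. Conditioned mice had Kcnj13 higher by 1.09 ± 0.57 and Tmem72 by 1.24 ± 0.77 on the log2 scale, males by 0.67 ± 0.59 and 0.92 ± 0.70, and ethanol gave −0.11 ± 0.59 and −0.23 ± 0.72, none of which passed. The median standard error over all genes was 0.0416 in the comparison of the sexes. Without the rich libraries the values for males were −0.23 ± 0.47 and −0.46 ± 0.54, and those for ethanol 0.77 ± 0.47 and 0.71 ± 0.54, so both directions turned. Conditioning then gave 0.68 ± 0.47 and 0.70 ± 0.54. None of the choroid plexus genes passed there in edgeR, while 0, 4 and 5 of them had an unadjusted p below 0.05 for sex, ethanol and conditioning.

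Leaving out the 17 rich libraries, or holding log2 Kcnj13 constant, moved the counts of genes called for the study's labels. Ethanol called 109 genes in all 63 libraries. Without the rich libraries 61 passed, 51 of them among the 109, and with Kcnj13 as covariate 135 passed, which held all 109. Sex called 40 genes, 28 without the rich libraries and 43 with the covariate. Conditioning called 4, 3 and 6 genes. Leaving out the rich libraries also left 46 libraries in place of 63, and the part of that in the smaller counts was not tested.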

How the data were processed

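Per the submitters' processing notes the sources name fastp, HISAT2, featureCounts, Salmon, DESeq2 and GRCm38, without versions or order. The gene table holds whole-number counts per gene as deposited by the authors, and the transcript table holds estimated counts as deposited by the authors. Total counts per library ran from 21027659 to 61631742.

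Genes were kept by edgeR's filter with a minimum count of 10, which left 19974 of 55401. Rich and poor libraries were compared with edgeR 4.0.16 (R 4.3.3), TMM factors, quasi-likelihood tests, strain as covariate and Benjamini-Hochberg adjustment over all genes, and so were slopes on log2 Ttr in the other 14 libraries. Every adjusted p in the text is from edgeR unless another tool is named. Estimated transcript counts were tested with limma 3.58.1. DESeq2 1.42.0 was an alternative. The fits were tested on simulated data: 99% of genes changed by 1 on the log2 scale were recovered for rich against poor, and 71% of those changed by 0.25. For the slopes in the unused libraries, 98.5% of those of 0.5 and 24% of those of 0.1 were recovered.

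Named genes are, without Ttr and unnamed models, up to 12 per direction by p, the 6 largest per direction, up to 6 per list by p, and any choroid plexus list gene. Other genes named, such as Prox1, Dnah5, Slc6a13, Cldn5, Fos and those of the transcript and strain comparisons, were singled out after their values were seen. The members and all lists were chosen with earlier results of these data known.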

Additional observations from a re-analysis of the deposited data

Results flagged for a closer look

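The log2 difference between rich and poor libraries differed between the strains for 20 genes, by the strain-by-class term in edgeR with adjusted p under 0.05. The gain in CPM need not differ in the same direction. As the log2 difference in DBA/2J minus that in C57BL/6J, the term was positive for Ccl9 (1.59), Myo7a (1.32), Dcdc2c (3.19), Atp10d (1.16), Slc5a5 (0.77), Inmt (2.32) and Neat1 (0.83). It was negative for Oca2 (−2.48), Ucp2 (−0.85), Exoc3l2 (−2.29), Col17a1 (−2.53), Eci3 (−2.26), Dnah6 (−1.21), Tuba1c (−1.14), Cfap54 (−0.66), B9d1os (−0.96), Cd59a (−0.95), Acaa2 (−0.53), Ooep (−4.38) and Arl6ip1 (−0.31). When each of the 17 rich libraries was left out in turn, 13 of the 20 passed all 17 times, and the fewest passes were those of Arl6ip1 (7) and Neat1 (9).

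Single libraries stood apart from the rest of their group, by Dixon's ratio, in 12 of 34 sets of values checked. Chance flags about 1 in 20 independent groups, but these sets are not independent: both genes follow the plexus, share libraries, and in part restate the Ttr class, so that rate is no yardstick here. For Kcnj13 these were 9.77 CPM in a library of conditioned female C57BL/6J mice given ethanol, 34.4 CPM in unconditioned males of that strain given ethanol, 8.56 CPM in unconditioned males given saline, and 0.188 CPM, a low value, in unconditioned female DBA/2J mice given ethanol. For Tmem72 the same 3 C57BL/6J libraries held 9.77, 33.7 and 10.1 CPM. A library of conditioned female DBA/2J mice given ethanol held 180 CPM, and one of unconditioned male DBA/2J mice given saline 0.398 CPM. Among the rich libraries, the richest of C57BL/6J stood apart with 101 CPM of Kcnj13 and 120 CPM of Tmem72, and the richest of DBA/2J with 309 CPM of Tmem72.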

How the results depend on the processing

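Fewer libraries or another scaling changed the lower side most. Lower genes numbered 1608 without scaling factors and 1221 in C57BL/6J alone. DBA/2J alone gave 1893 higher and 293 lower, the first round of title numbers alone 1102 and 115, and the striatal list as covariate 1752 and 933. Other alternatives, DESeq2 among them (3004 and 3038), stayed within 1.5 times. Leaving out 1 library at a time gave 2830 to 3238 higher and 2243 to 3277 lower genes. The strain-by-class count ran from 15 to 26. In the unused libraries, positive slopes numbered 56 and negative ones 1 with all covariates. Negative slopes numbered 1 by limma voom, 7 without a filter and 0 with Ttr on a linear scale (191 at an unadjusted p below 0.05). Without each library in turn they were 61 to 90 and 0 to 5. Ethanol called 61 genes without the rich libraries. Of 11500 values of named genes over the alternatives, 517 lost their call and 1 reversed, Tmem212 at −0.0144 with the striatal covariate. The causes were not tested.

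With the title number as a replicate block, 2802 genes were higher and 2777 lower, and the strain-by-class term called 16 genes, 15 of them among the 20. The 5 others of the 20 were Arl6ip1 (adjusted p = 0.3), B9d1os (0.26), Acaa2 (0.15), Neat1 (0.14) and Tuba1c (0.098) in edgeR. In the unused libraries that block left 2 residual degrees of freedom and 0 positive slopes in edgeR (480 at an unadjusted p below 0.05). Same-numbered libraries had a median correlation of 0.07, and 7 of 63 correlated best with their own number.

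Depth did not limit abundant genes. For the 237 genes above 2-fold with under 10 counts at the poor median, the size rests on few reads.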
